A study of Mus musculus with 21 samples.

Results

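The samples described here were cancer-associated fibroblasts (CAFs) of mouse mammary tumours in which the gene for the homeodomain transcription factor Prrx1 had been targeted with CRISPR/Cas9. They made up 6 of the 21 samples of the series and were taken by their labelled cell type, MMTV_CAF, as 3 cultures labelled SG_PRRX1 (called sgPrrx1 below) and 3 labelled WT_PRRX1 (called WT). The fibroblasts came from breast cancers of MMTV-PyMT mice, which express the polyomavirus middle T antigen from the mouse mammary tumour virus promoter, on the FVB/NJ strain. Per the labels, both groups had been immortalised by overexpression of HPV E6/E and were grown in DMEM with 10% FBS to 80-90% confluence. The sgPrrx1 cells carried a guide against the first exon of Prrx1, and the WT cells were the control named sgNS, so both groups had been immortalised in the same way. The age of the mice is not given, nor is whether a line was 1 clone or whether the 3 cultures of a group were separately edited, so p-values measure only the spread between these cultures, which may be technical. Any other difference between the edited and the control population cannot be told apart from the edit.

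Prrx1 is expressed in embryonic limb and craniofacial mesenchyme and is found in fibroblasts of injured tissue and of tumours. CAFs are commonly described along a range from myofibroblastic cells, which make contractile actin filaments and collagen-rich matrix, to inflammatory cells, which secrete cytokines, chemokines and acute-phase proteins. Immortalised cultures grown on plastic can be expanded and edited, but they lack the tumour cells, leukocytes and vessels that CAFs meet in a tumour.

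The deposited values were read counts per gene for poly(A)-selected RNA. The 6 libraries held 105097945 to 134790440 counts each, and 14950 to 15331 genes had at least 1 count in a library. Of 24455 genes listed, 13903 had enough counts to be tested. Values below are counts relative to library size (CPM) after scaling by trimmed mean of M-values (TMM), given in the order of replicates 1, 2 and 3, and tests are edgeR quasi-likelihood tests of 3 sgPrrx1 against 3 WT cultures with Benjamini-Hochberg adjustment. CPM depends on transcript length, so levels are compared between groups for a gene and not between genes. Of 10 fibroblast markers, 9 were tested, and their summed level was 26805 to 27240.1 CPM in WT and 14279 to 14391 CPM in sgPrrx1 cultures. Col1a1 and Col1a2 made up most of this sum in both groups, so it mainly follows these collagens. Singly, Col1a1, Col1a2, Pdgfrb, Thy1, Vim and Lum were lower and Pdgfra, Dcn and Pdpn higher in sgPrrx1 cultures. Fap, which encodes fibroblast activation protein, was not tested because it had almost no counts in either group. Some markers of other cell types were absent and others were detected. Epcam and Cldn4 of epithelial cells, Ptprc of leukocytes, Tie1 of endothelial cells, and Kcnj8 and Abcc9 of pericytes had 0 counts in all 6 libraries. Krt19 of epithelial cells (54.5 ± 1.06 CPM), Csf1r of macrophages (5.77 ± 0.435 CPM), Notch3 of pericytes (9.73 ± 0.3403 CPM) and Kdr of endothelial cells (0.984 ± 0.259 CPM) were present in WT cultures (mean ± SD, n = 3) and near 0 in sgPrrx1 cultures, where Krt19, Csf1r and Notch3 were at 0.187, 0.194 and 0.204 CPM and Kdr had 3 counts in all. Other markers of these cell types rose in sgPrrx1 cultures. The epithelial Grhl2 and Ehf rose from 0.00901 to 0.190 CPM and from 0 to 5.17 CPM. Cd14 of macrophages rose from 6.90 to 26.6 CPM, and the endothelial Egfl7 from 4.25 to 14.9 CPM.

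Prrx1 transcript fell but was not lost. Its level was 646, 653 and 654 CPM in the WT cultures and 314, 314 and 306 CPM in the sgPrrx1 cultures. No sgPrrx1 culture approached a WT culture, and the fall was 2.09-fold (log2 fold change −1.06 ± 0.017 (SE), adjusted p = 7.22e-10). Reads from an edited allele still count towards the gene, so this value measures transcript and not protein. The promoter of Prrx1 is shown because it holds the sequence to which homeodomain proteins commonly bind, TAATTA, here in capitals. It covers the 250 bases before the RefSeq transcription start on chr1:163313651-163313900 (GRCm38.p6, minus strand), and the match begins 173 bases before the start.

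Prrx1 promoter: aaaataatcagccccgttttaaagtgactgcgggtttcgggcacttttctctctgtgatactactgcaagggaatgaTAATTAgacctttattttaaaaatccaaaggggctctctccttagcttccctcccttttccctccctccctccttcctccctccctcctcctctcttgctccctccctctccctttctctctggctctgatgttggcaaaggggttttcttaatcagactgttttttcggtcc

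These letters, which read the same on both strands, were found in 2.34% of the promoters of that length of all tested genes, in 2.84% of those of genes that fell at least 2-fold and in 3.34% of those of genes that rose at least 2-fold. Prrx2, the paralogue of Prrx1, was measured at 69.9, 78.04 and 75.5 CPM in the WT cultures and 123, 118 and 122 CPM in the sgPrrx1 cultures. It was higher in every sgPrrx1 culture, by 1.62-fold (log2 fold change 0.70 ± 0.041 (SE), adjusted p = 1.06e-06).

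Most genes differed between the groups. At an adjusted p under 0.05, 11552 genes (83.1% of those tested) differed, of which 5820 (41.9%) were lower and 5732 (41.2%) higher in sgPrrx1 cultures. The spread between cultures was small: among 1907 genes with at least 100 CPM in both groups, the median coefficient of variation was 1.83% in WT and 1.35% in sgPrrx1 cultures. Calls of any size therefore separate little, and gene groups below are also described by changes of at least 2-fold. This size was passed downwards by 1778 genes (12.8%) and upwards by 1599 (11.5%), 24.3% in all. Counts of group members below are to be read against these shares and against the 41.9% and 41.2% above. The sgPrrx1 cultures were all below all WT cultures for 5942 genes (42.7%) and all above them for 5834 (42.0%). The median log2 fold change over all tested genes was −0.00318. TMM scaling largely sets this value near 0, so it is no test of the scale. Among the genes tested, 205 had more than 3 counts over the WT cultures and 0 in every sgPrrx1 culture. Of these 205, 18 were at 10 CPM or more in WT. In the other direction, 88 had more than 3 counts over the sgPrrx1 cultures and 0 in every WT culture. Of these 88, 7 were at 10 CPM or more in sgPrrx1 cultures.

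**Figure D1:**
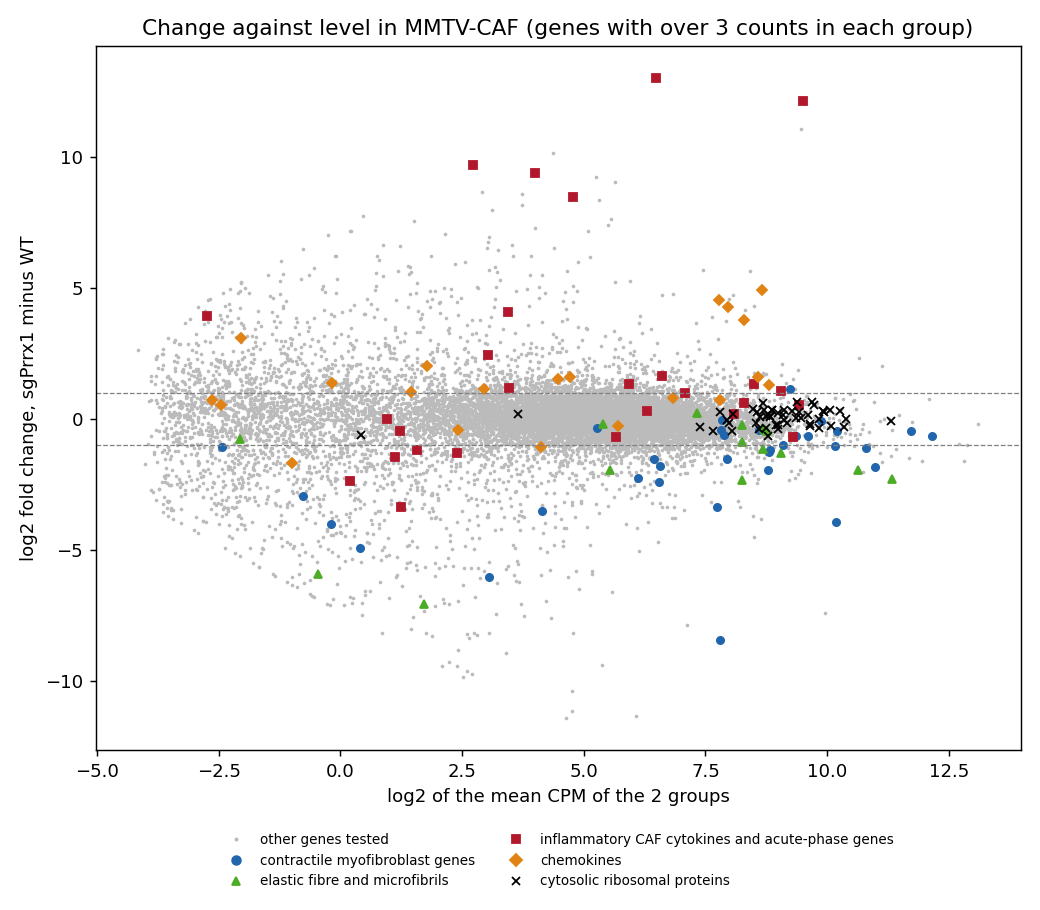
Log2 fold change of sgPrrx1 against WT MMTV-CAF (vertical axis) against the mean level in log2 CPM (horizontal axis) for genes with more than 3 counts in each group; each point is a gene, coloured by 5 gene groups, with dashed lines at a 2-fold change. Changes of both directions are seen at most levels; contractile and elastic fibre genes lie mostly below 0, inflammatory genes and chemokines mostly above it, and ribosomal protein genes between the dashed lines.

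Genes of the contractile apparatus fell as a group. Of 35 tested contractile myofibroblast genes, 33 fell and 1 rose, 22 fell at least 2-fold, with a median log2 fold change of −1.18. Acta2, which encodes the alpha smooth muscle actin that defines myofibroblasts, was at 2191, 2183 and 2142 CPM in the WT cultures and 140.3, 142 and 144 CPM in the sgPrrx1 cultures. The groups were far apart, and the fall was 15.3-fold (log2 fold change −3.93 ± 0.018 (SE), adjusted p = 9.29e-12). Tagln, which encodes the actin-binding protein transgelin, was at 451, 447 and 441 CPM in the WT cultures and 1.58, 1.25 and 1.09 CPM in the sgPrrx1 cultures. Almost none of the WT level was left in any sgPrrx1 culture, a 343-fold fall (log2 fold change −8.42 ± 0.12 (SE), adjusted p = 3.92e-10). Myl9, which encodes the regulatory light chain of smooth muscle and nonmuscle myosin, was at 391, 392 and 384 CPM in the WT cultures and 37.7, 38.2 and 37.5 CPM in the sgPrrx1 cultures. All sgPrrx1 cultures were lower, by 10.3-fold (log2 fold change −3.36 ± 0.019 (SE), adjusted p = 1.42e-11). Calponin, encoded by Cnn1, was at 158, 163 and 151 CPM in the WT cultures and 30.9, 30.2 and 29.04 CPM in the sgPrrx1 cultures. Its fall of 5.24-fold was smaller than that of Tagln but left the groups equally separate. Sorbs2, an adaptor of actin stress fibres, had 2.24, 1.98 and 1.71 CPM in WT cultures and 0 counts in every sgPrrx1 culture, at least 233-fold lower when the sgPrrx1 group is set at a floor of 3 counts.

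The fall did not extend to every actin-associated gene. Tpm1, a tropomyosin, was at 987, 963 and 927 CPM in the WT cultures and 937, 895 and 909 CPM in the sgPrrx1 cultures. The groups overlapped in 1 culture, and the fall of 1.05-fold was small although it passed the test (log2 fold change −0.07 ± 0.027 (SE), adjusted p = 0.0401). Palld, which encodes the stress-fibre protein palladin, was at 232, 225 and 232 CPM in the WT cultures and 229.5, 226 and 227 CPM in the sgPrrx1 cultures. Its groups overlapped (log2 fold change −0.01 ± 0.020 (SE), adjusted p = 0.538). Tagln2, a transgelin of many cell types, was the member that rose, from 379 ± 10.3 to 832 ± 18.2 CPM (mean ± SD, n = 3; 2.19-fold). The nonmuscle myosin heavy chain Myh9 and the actin crosslinker Flna were among the 10 genes that lost the most CPM, Myh9 from 3150.3 ± 104 to 897 ± 9.36 CPM and Flna from 3386 ± 89.7 to 1079.5 ± 12.7 CPM.

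The promoter of Myl9 is shown because serum response factor (SRF), which drives contractile genes with its cofactors of the myocardin family, binds the CArG box. This window is the 250 bases before the RefSeq start on chr2:156775214-156775463 (GRCm38.p6, plus strand), with the CArG box in capitals, beginning 161 bases before the start.

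Myl9 promoter: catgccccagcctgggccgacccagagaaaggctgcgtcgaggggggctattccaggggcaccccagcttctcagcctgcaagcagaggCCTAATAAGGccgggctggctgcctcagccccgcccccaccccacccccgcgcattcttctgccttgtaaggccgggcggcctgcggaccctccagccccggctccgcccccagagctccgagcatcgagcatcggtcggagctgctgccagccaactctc

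A CArG box on either strand was in 1.21% of the promoters of tested genes, in 2.21% of those of genes that fell at least 2-fold and in 0.979% of those of genes that rose at least 2-fold; these shares rest on 10888 matched promoters and were not tested. Among regulators of this system, 14 of 17 tested genes of the SRF, MRTF and YAP axis fell and 2 rose, 4 of them fell at least 2-fold, and the median was −0.35. Myocd, which encodes myocardin, was low in WT at 0.164, 0.216 and 0.163 CPM and had 0 counts in all sgPrrx1 cultures. Vgll3, a cofactor of TEAD transcription factors, was at 187, 187 and 189.7 CPM in the WT cultures and 66.2, 65.6 and 65.1 CPM in the sgPrrx1 cultures. It was lower in each sgPrrx1 culture, by 2.86-fold (log2 fold change −1.52 ± 0.018 (SE), adjusted p = 1.84e-10). Letters of the TEAD site, CATTCC on either strand, were in 10.6% of all promoters, 13.6% of those of genes that fell and 12.1% of those of genes that rose at least 2-fold.

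**Figure D2:**
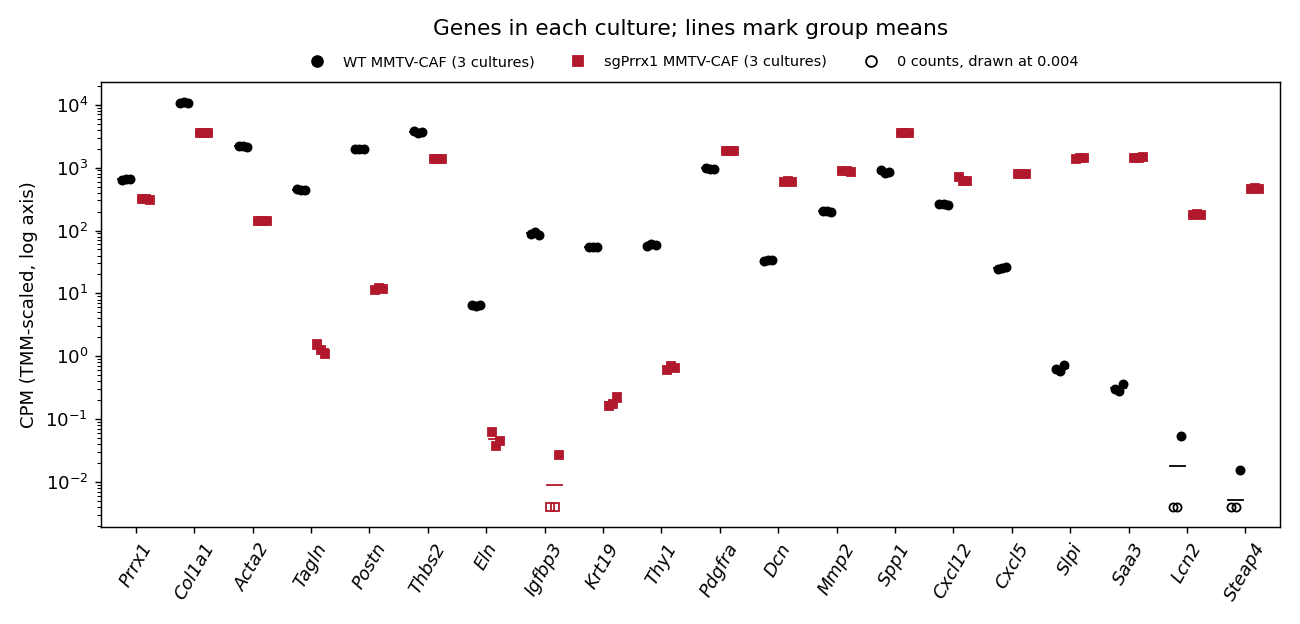
CPM on a log axis in each of the 3 WT and 3 sgPrrx1 MMTV-CAF cultures for genes that lead the described groups; points are cultures, lines are group means, and open symbols are cultures with 0 counts, drawn at 0.004. For Prrx1, Acta2, Tagln and Postn all sgPrrx1 points lie below all WT points, and for Saa3, Slpi and Cxcl5 all lie above.

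Structural collagens lost much of their transcript. Of 11 tested fibrillar collagen chains, 8 fell and 2 rose, 5 fell at least 2-fold, and the median was −0.99. Col1a1, which encodes the main chain of type I collagen, was at 10752, 10917 and 10686 CPM in the WT cultures and 3549, 3538 and 3571 CPM in the sgPrrx1 cultures. It fell by 3.04-fold (log2 fold change −1.602 ± 0.012 (SE), adjusted p = 3.30e-11), and together with Col1a2 it was at the top of the 10 genes that lost the most CPM. Col1a2, the other chain of type I collagen, was at 10174, 10001 and 10010.2 CPM in the WT cultures and 5013, 5061 and 5091 CPM in the sgPrrx1 cultures, a 1.99-fold fall, so both chains fell but by different factors. Col3a1 fell by 3.04-fold, from 5963 ± 148 to 1959 ± 16.3 CPM. Col11a1, a minor fibrillar chain of cartilage and of desmoplastic stroma, was at 13.8, 12.6 and 13.2 CPM in WT and at 0 counts in every sgPrrx1 culture, at least 1556-fold lower. Against this direction, Col5a3 rose from 6.52 ± 0.361 to 23.96 ± 0.579 CPM (3.68-fold).

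Among other collagen chains, 14 of 24 tested fell and 7 rose, with 9 and 4 past 2-fold and a median of −0.77. Col12a1, a fibril-associated collagen, fell from 513 ± 13.6 to 58.8 ± 1.02 CPM (8.73-fold), and Col15a1, of basement membrane zones, from 15.3 ± 0.3996 to 0.267 ± 0.133 CPM (55.3-fold). Of 25 collagen-modifying genes, 18 fell, 4 rose and the median was −0.65. Bmp1, which removes the C-terminal propeptide of procollagens, fell by 3.298-fold, and Adamts2, which removes the N-terminal one, by 5.26-fold. Serpinh1, the collagen chaperone, was at 1462, 1379.7 and 2228 CPM in the WT cultures and 946, 1537 and 956 CPM in the sgPrrx1 cultures. These values overlapped, with 1 culture in each group well above the others, and the gene did not pass the test (log2 fold change −0.56 ± 0.24 (SE), adjusted p = 0.0585).

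Elastic fibre genes fell with few exceptions. Of 18 tested, 17 fell, 11 of them at least 2-fold, 1 rose, and the median was −1.602. Fbln2, an extracellular protein that binds fibrillin and fibronectin, was at 4330.0, 4267 and 4231 CPM in the WT cultures and 856, 881 and 878 CPM in the sgPrrx1 cultures. The fall was 4.903-fold with no overlap (log2 fold change −2.29 ± 0.016 (SE), adjusted p = 3.30e-11). Eln, which encodes tropoelastin, was low and fell from 6.54 ± 0.129 to 0.0488 ± 0.0133 CPM (133-fold). The microfibril-associated Mfap4 and Mfap2 had WT means of 0.951 and 0.405 CPM and 0 counts in every sgPrrx1 culture.

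Matricellular proteins bind cells and matrix without forming its scaffold. Of 22 tested, 19 fell, 17 at least 2-fold, and 3 rose, with a median of −1.45. Periostin, encoded by Postn and abundant in activated fibroblasts, was at 1994, 1944 and 2001 CPM in the WT cultures and 11.4, 12.1 and 11.8 CPM in the sgPrrx1 cultures. Its sgPrrx1 cultures held a small remnant of the WT level, a 169-fold fall (log2 fold change −7.399 ± 0.030 (SE), adjusted p = 9.29e-12). Fibronectin, encoded by Fn1, was at 8899, 8625 and 8760.0 CPM in the WT cultures and 4587, 4573 and 4529 CPM in the sgPrrx1 cultures. All sgPrrx1 cultures were lower, but by 1.92-fold only (log2 fold change −0.94 ± 0.014 (SE), adjusted p = 4.80e-10). Tenascin C, encoded by Tnc, fell from 91.6 ± 0.473 to 14.2 ± 1.15 CPM (6.43-fold), and Thbs2, which encodes thrombospondin 2, from 3684 ± 86.99 to 1387 ± 10.03 CPM (2.66-fold). Osteopontin, encoded by Spp1, went the other way at 917, 828 and 855 CPM in the WT cultures and 3554, 3577 and 3609 CPM in the sgPrrx1 cultures. It was higher in every sgPrrx1 culture, by 4.13-fold (log2 fold change 2.05 ± 0.035 (SE), adjusted p = 1.06e-09), and Tgfbi rose from 83.9 ± 0.714 to 204 ± 3.68 CPM (2.43-fold).

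Basement membrane genes had a median log2 fold change of −1.62, with 12 of 17 tested lower, 9 of them at least 2-fold, and 4 higher, none at 2-fold. Laminin chains differed from each other. Lama4 was at 96.7, 92.1 and 97.1 CPM in the WT cultures and 1.01, 1.08 and 0.816 CPM in the sgPrrx1 cultures, and Lamb2 at 190.0, 190.2 and 189.9 CPM in the WT cultures and 18.7, 18.5 and 18.9 CPM in the sgPrrx1 cultures. Both were far lower in sgPrrx1 cultures, by 97.9-fold and 10.2-fold. Lamb1 instead rose by 1.201-fold. Of the basement membrane collagens, which are counted with the other collagen chains, Col4a1 fell from 1126 ± 37.1 to 519.7 ± 41.5 CPM (2.17-fold) and Col4a2 by 2.01-fold, while Col4a6 rose from 27.6 ± 1.22 to 118 ± 1.28 CPM (4.26-fold), and Col4a5 and Col18a1 rose by 1.57-fold and 2.15-fold.

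Small leucine-rich proteoglycans, which bind collagen fibrils, split by member. Of 11 tested, 8 fell and 3 rose, 5 and 3 past 2-fold. Biglycan, encoded by Bgn, was at 4820.3, 4914 and 4794 CPM in the WT cultures and 1741, 1741 and 1701 CPM in the sgPrrx1 cultures. Decorin, encoded by Dcn, was at 32.5, 33.6 and 34.01 CPM in the WT cultures and 592, 607 and 596 CPM in the sgPrrx1 cultures. These relatives moved in opposite directions with no overlap in either: Bgn fell by 2.803-fold (log2 fold change −1.49 ± 0.015 (SE), adjusted p = 1.01e-10) and Dcn rose by 17.9-fold (log2 fold change 4.16 ± 0.024 (SE), adjusted p = 1.42e-11). Aspn and Lum fell by 123-fold and 15.8-fold, Lum from a WT mean of 1.31 CPM, and Ogn rose by 2.94-fold.

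Proteases of the matrix were also divided. Of 27 tested metalloproteinases and inhibitors, 20 fell and 5 rose, 12 and 4 past 2-fold, with a median of −0.93. Mmp14, a membrane-bound collagenase that activates the gelatinase MMP2, fell from 898 ± 10.7 to 339 ± 3.59 CPM (2.65-fold). Mmp2 itself was at 202, 205 and 196 CPM in the WT cultures and 886, 868 and 858 CPM in the sgPrrx1 cultures. It rose by 4.33-fold (log2 fold change 2.11 ± 0.022 (SE), adjusted p = 1.01e-10). Stromelysin 1, encoded by Mmp3, fell by 11.4-fold, while Mmp9 and Mmp13, of which WT cultures had little, rose by 9.83-fold and 3.12-fold. The inhibitor Timp3 fell by 1.77-fold. Among integrin subunits, the receptors for this matrix, 12 of 20 fell and 4 rose, 6 fell at least 2-fold and none rose that much. Itga8, of a receptor for fibronectin and other RGD proteins, fell by 107-fold. The cadherin of fibroblasts, Cdh11, was at 661, 655 and 661 CPM in the WT cultures and 50.8, 51.02 and 49.2 CPM in the sgPrrx1 cultures, a 13.1-fold fall.

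Genes of the inflammatory CAF state rose more often than they fell. Of 32 tested inflammatory cytokines and acute-phase genes, 22 rose, 17 of them at least 2-fold, 8 fell, 6 at least 2-fold, and the median was 1.13. Serum amyloid A3, encoded by Saa3, was at 0.308, 0.279 and 0.365 CPM in the WT cultures and 1439.8, 1445 and 1478 CPM in the sgPrrx1 cultures. The rise was 4538-fold (log2 fold change 12.15 ± 0.068 (SE), adjusted p = 1.42e-11), from a level close to 0. Lcn2, which encodes the iron-siderophore binding protein lipocalin 2, was at 0, 0 and 0.0543 CPM in the WT cultures and 178, 185 and 176 CPM in the sgPrrx1 cultures. Counts were absent from 2 of the 3 WT cultures, and the fitted rise was 8393-fold. Slpi, which encodes a secreted inhibitor of leukocyte proteases, was at 0.626, 0.595 and 0.729 CPM in the WT cultures and 1369, 1419 and 1421 CPM in the sgPrrx1 cultures. This gene belonged to no list and was, with Saa3, among the 10 that gained the most CPM. Granulocyte colony-stimulating factor, encoded by Csf3, had 0 counts in every WT culture and 16.4, 16.3 and 16.2 CPM in sgPrrx1 cultures, at least 1868-fold higher.

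Il6, the cytokine most used to define inflammatory CAFs, was low at 6.62, 6.77 and 6.66 CPM in the WT cultures and 14.9, 15.2 and 16.2 CPM in the sgPrrx1 cultures. It was higher in all sgPrrx1 cultures, by 2.31-fold (log2 fold change 1.21 ± 0.044 (SE), adjusted p = 6.07e-08). Nos2, the inducible nitric oxide synthase, rose from 0.0455 ± 0.0144 to 31.97 ± 0.688 CPM, and the alarmin Il33 from 1.202 ± 0.0358 to 20.6 ± 0.539 CPM (17.1-fold). Lif, a cytokine of the IL6 family, was at 2.06, 2.75 and 2.67 CPM in the WT cultures and 16.9, 8.05 and 16.7 CPM in the sgPrrx1 cultures. One sgPrrx1 culture was lower than the other two, and the rise was 5.54-fold (log2 fold change 2.47 ± 0.29 (SE), adjusted p = 8.54e-05). Csf1, the macrophage colony-stimulating factor, fell, at 767, 775 and 782 CPM in the WT cultures and 483, 484 and 485 CPM in the sgPrrx1 cultures. Its groups did not overlap, and the fall was 1.601-fold (log2 fold change −0.68 ± 0.014 (SE), adjusted p = 2.59e-09). Il11, another member of the IL6 family, fell by 2.704-fold, and Icam1, a leukocyte adhesion receptor, by 10.4-fold. Csf2 was not tested: its counts were 6, 0 and 0 in WT and 8, 14 and 10 in sgPrrx1 libraries.

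Chemokines followed the same direction. Of 22 tested chemokines and their receptors, 16 rose, 13 at least 2-fold, and 5 fell, 3 at least 2-fold, with a median of 1.22. Cxcl5, a chemoattractant of neutrophils, was at 24.7, 25.6 and 26.6 CPM in the WT cultures and 782, 803 and 778 CPM in the sgPrrx1 cultures, and Cxcl1, another, at 25.7, 22.3 and 24.2 CPM in the WT cultures and 481, 468 and 466 CPM in the sgPrrx1 cultures. Both were higher in every sgPrrx1 culture, by 30.7-fold (log2 fold change 4.94 ± 0.032 (SE), adjusted p = 2.00e-11) and 19.6-fold (log2 fold change 4.29 ± 0.054 (SE), adjusted p = 2.48e-10). Ccl2, which attracts monocytes, rose from 187 ± 5.22 to 574 ± 20.1 CPM (3.07-fold). Ccl5, which attracts T cells and monocytes, rose from 12.9 ± 0.246 to 39.4 ± 1.602 CPM (3.06-fold). Cxcl12, the ligand of CXCR4, was at 265, 263 and 252 CPM in the WT cultures and 702, 613 and 604 CPM in the sgPrrx1 cultures. Every sgPrrx1 culture exceeded every WT culture, by 2.46-fold overall (log2 fold change 1.298 ± 0.056 (SE), adjusted p = 1.58e-07), and its scavenger receptor Ackr3 rose by 23.4-fold. Cxcl14 was the large exception: it was at 37.6, 39.4 and 38.5 CPM in WT and at 0 counts in all sgPrrx1 cultures, at least 4546-fold lower.

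The promoter of Cxcl1 is shown because NF-kappaB, which drives many chemokine genes, binds the kB site. It covers 250 bases before the RefSeq start on chr5:90890995-90891244 (GRCm38.p6, plus strand), with the site in capitals. Overlapping matches begin 71 and 70 bases before the start, one on each strand.

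Cxcl1 promoter: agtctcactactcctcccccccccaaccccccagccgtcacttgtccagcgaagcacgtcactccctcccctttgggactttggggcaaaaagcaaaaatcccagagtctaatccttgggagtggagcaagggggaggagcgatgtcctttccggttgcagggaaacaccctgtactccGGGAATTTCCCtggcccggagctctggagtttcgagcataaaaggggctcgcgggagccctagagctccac

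A kB site on either strand was in 4.45% of all promoters, in 5.20% of those of genes that fell at least 2-fold and in 6.28% of those of genes that rose at least 2-fold. The AP-1 site TGACTCA, on either strand, was in 3.22%, 5.12% and 4.65% of the same sets, and the TATA box letters TATAAA were in 6.86%, 8.35% and 10.8%. These are counts of letters and were not tested.

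**Figure D3:**
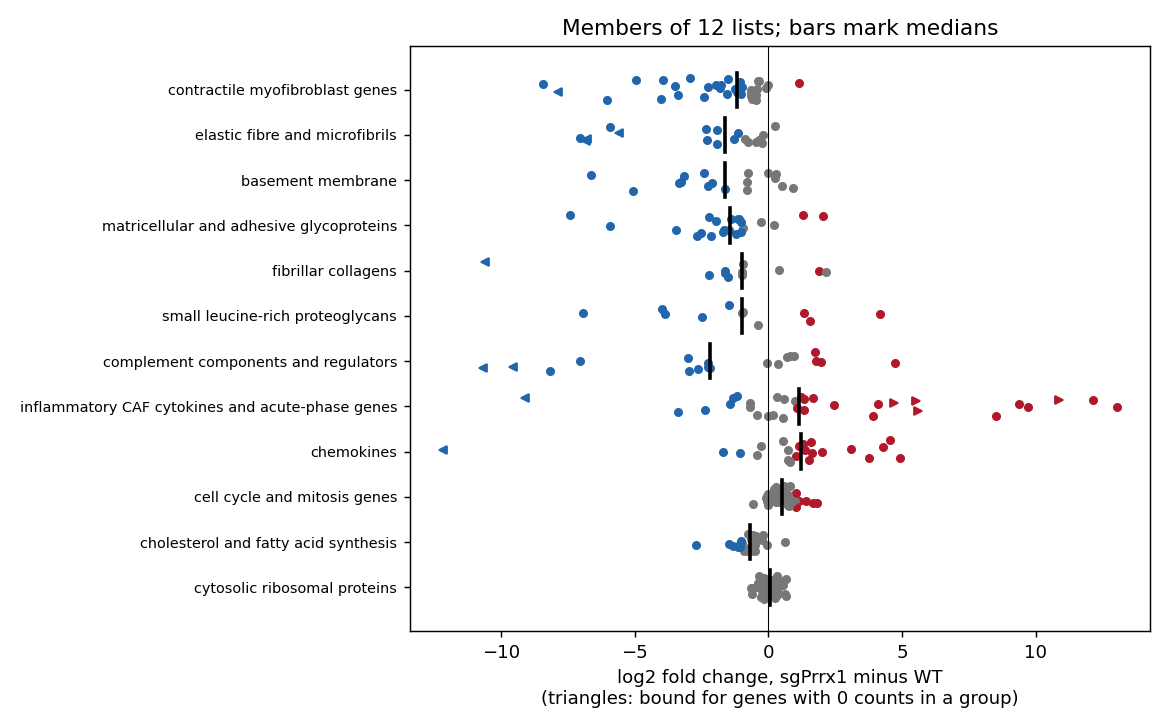
Log2 fold change of sgPrrx1 against WT (horizontal axis) for each tested member of 12 gene groups (rows); each point is a gene, coloured where it changed at least 2-fold, triangles are bounds for genes with 0 counts in a group, and bars are medians. Contractile, elastic fibre and matricellular genes lie mostly left of 0, inflammatory genes and chemokines mostly right of it, and complement genes far out on both sides.

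Complement genes changed by large factors in both directions. Of 19 tested, 11 fell and 8 rose, 10 and 4 past 2-fold, with a median of −2.17. The central component C3 was at 19.2, 18.6 and 20.1 CPM in the WT cultures and 528, 519.5 and 506 CPM in the sgPrrx1 cultures. It rose by 26.9-fold (log2 fold change 4.75 ± 0.037 (SE), adjusted p = 3.94e-11). Of the classical pathway proteases, C1s1 rose from 112 ± 0.116 to 439 ± 5.27 CPM and C1ra from 164 ± 1.77 to 558 ± 5.48 CPM, whereas C2 fell from 16.6 ± 0.481 to 0.0589 ± 0.0447 CPM (288-fold). Cd55, which limits complement on the cell surface, had 13.97, 13.1 and 14.1 CPM in WT and 0 counts in every sgPrrx1 culture. Serping1, the inhibitor of C1 proteases, fell by 8.12-fold.

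The platelet-derived growth factor (PDGF) receptors moved apart. Pdgfrb was at 1108, 1085 and 1103 CPM in the WT cultures and 256, 260.2 and 252 CPM in the sgPrrx1 cultures, a 4.29-fold fall. Pdgfra was at 986, 955 and 963 CPM in the WT cultures and 1867, 1866 and 1868 CPM in the sgPrrx1 cultures, a 1.93-fold rise. Neither receptor had overlapping groups. The ligand Pdgfd was at 18.4, 17.2 and 18.1 CPM in WT and at 0 counts in sgPrrx1 cultures. In the PDGF and FGF axis as a whole, 13 of 24 tested genes fell and 10 rose, with 9 and 3 past 2-fold. Fgf2 fell by 6.001-fold.

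Among ligands and receptors of the IGF, HGF, EGF and NRG families, 12 of 26 fell and 11 rose, shares near those over all genes (41.9% and 41.2%), and the median was 0.06. Past 2-fold, 8 fell and 5 rose, 30.8% and 19.2% against 12.8% and 11.5% over all genes. Igf1 was at 168, 169 and 173 CPM in the WT cultures and 12.003, 22.8 and 21.2 CPM in the sgPrrx1 cultures. One sgPrrx1 culture was below the other two, all were far below WT, and the fall was 9.105-fold (log2 fold change −3.19 ± 0.22 (SE), adjusted p = 2.69e-06). The IGF-binding proteins went both ways. Igfbp3 was at 88.6, 95.1 and 86.4 CPM in WT and had 3 counts in total in the sgPrrx1 libraries, a ratio of 10602 (95% counting interval 3627 to 51411). Igfbp4 was at 34.02, 35.2 and 34.3 CPM in the WT cultures and 692, 692 and 689 CPM in the sgPrrx1 cultures, a 20.02-fold rise. Gas6, the ligand of TAM receptors, fell from 749 ± 15.2 to 53.3 ± 0.637 CPM (14.1-fold), and Hgf, the ligand of MET, rose from 321 ± 5.19 to 930.4 ± 13.5 CPM (2.895-fold). The EGF-family ligands Ereg and Areg rose by 6.68-fold and 49.6-fold, Areg from 0.106 ± 0.0188 to 5.38 ± 0.361 CPM.

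In the TGF-beta axis, 15 of 26 tested genes fell and 8 rose, 8 and 2 past 2-fold, with a median of −0.50. Lrrc32, which holds latent TGF-beta on the cell surface, was at 625, 643 and 642 CPM in the WT cultures and 132, 132 and 131 CPM in the sgPrrx1 cultures, and it fell by 4.85-fold. Inhba, the beta A subunit of activin and inhibin, fell from 156 ± 3.93 to 31.6 ± 1.17 CPM (4.94-fold). Tgfbr1, the type I receptor, rose from 43.2 ± 1.44 to 105 ± 2.51 CPM (2.43-fold). Smad3, an intracellular mediator of the pathway, was at 92.8, 89.7 and 93.1 CPM in the WT cultures and 88.6, 92.6 and 92.97 CPM in the sgPrrx1 cultures. Its groups overlapped and it did not pass the test (log2 fold change −0.01 ± 0.028 (SE), adjusted p = 0.793). Ccn2, a commonly used response gene, fell by 3.88-fold. Of 22 BMP axis genes, 9 fell and 12 rose. The ligand Bmp4 rose from 18.5 ± 0.736 to 113 ± 1.404 CPM (6.098-fold), while Gdf10 fell by 9.19-fold.

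In the Wnt axis, 26 of 40 tested genes fell and 13 rose, 16 and 9 past 2-fold, with a median of −0.64. Wnt5a, a mostly noncanonical ligand, was at 39.3, 40.2 and 37.9 CPM in the WT cultures and 0.6704, 0.518 and 0.979 CPM in the sgPrrx1 cultures, and the receptor Fzd4 at 55.3, 57.9 and 56.6 CPM in the WT cultures and 0.942, 1.02 and 1.08 CPM in the sgPrrx1 cultures. Both were nearly lost, by 54.8-fold and 55.7-fold. Secreted antagonists of the frizzled-related family moved apart: Sfrp1 fell from 554 ± 1.85 to 147 ± 1.80 CPM (3.76-fold) and Sfrp2 rose from 538 ± 9.82 to 2711 ± 35.4 CPM (5.04-fold). Rspo2, which amplifies Wnt signals, fell by 286-fold, and Rnf43, which removes Wnt receptors from the surface, was at 0 counts in WT and at 6.18, 6.65 and 7.23 CPM in sgPrrx1 cultures. Of 16 Notch and Hedgehog genes, 8 fell and 8 rose. The receptor Notch3, the ligand Jag1 and the target Hes1 fell by 48.7-fold, 10.03-fold and 9.82-fold, while the target Hey1 rose from 0.124 ± 0.0305 to 1.57 ± 0.286 CPM (12.6-fold) and the ligand Jag2 from 0.172 ± 0.0486 to 0.5896 ± 0.105 CPM (3.46-fold).

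**Figure D4:**
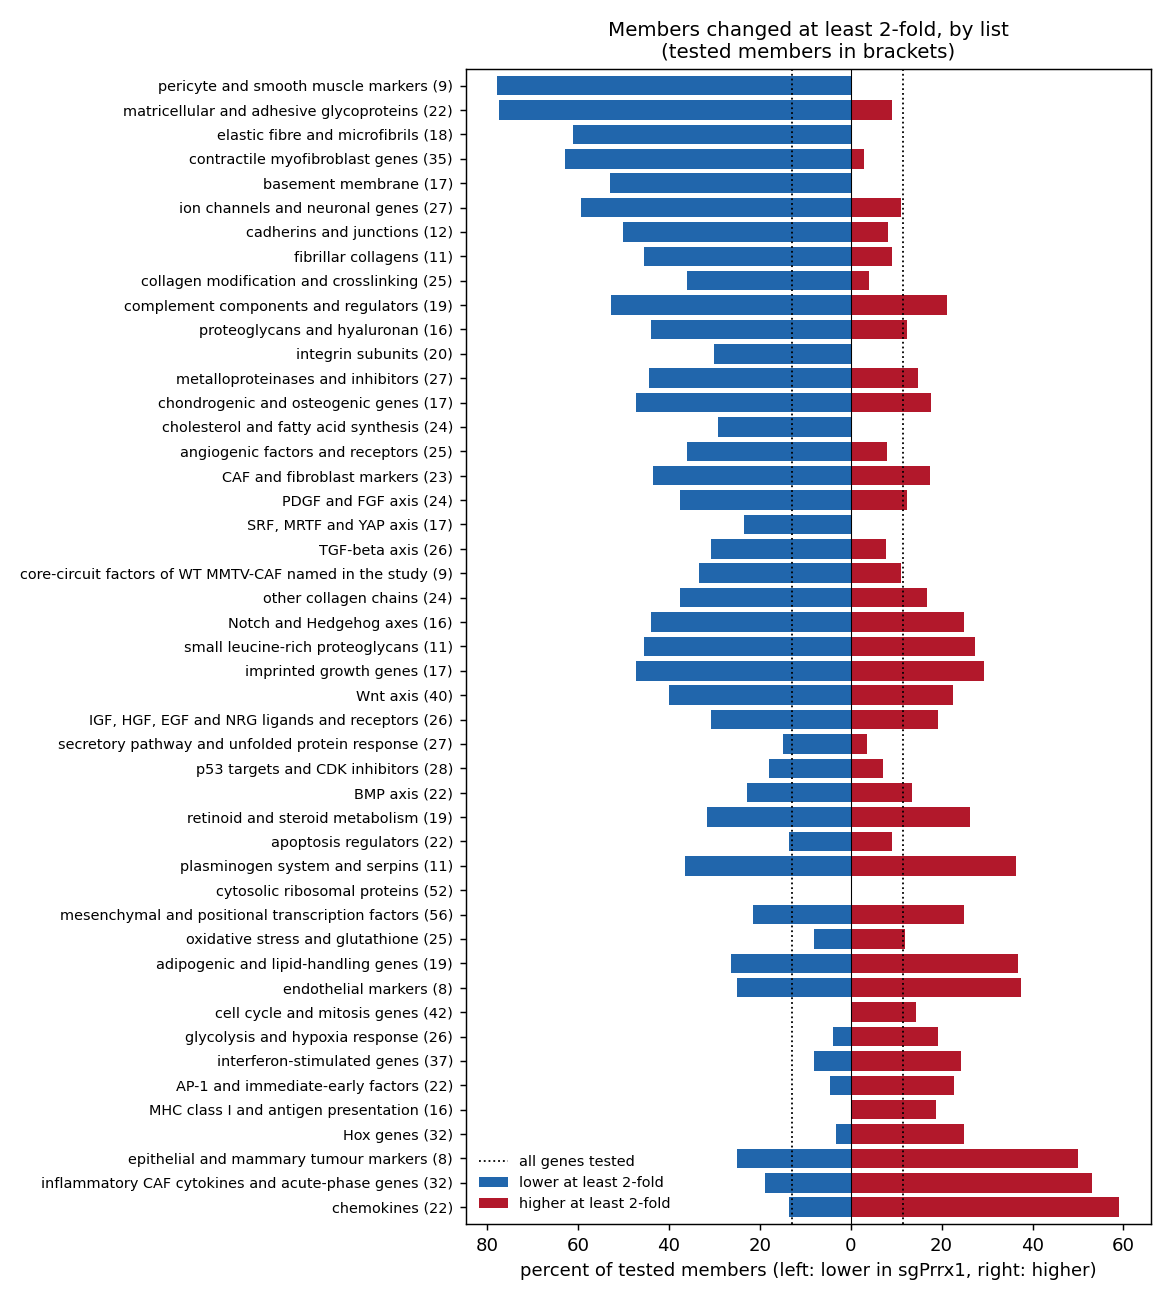
Percentage of the tested members of each gene group that fell (left) or rose (right) at least 2-fold in sgPrrx1 against WT MMTV-CAF, with dotted lines at the share over all tested genes, 12.8% lower and 11.5% higher. Matricellular, contractile and elastic fibre genes have the longest bars to the lower side among matrix groups, and chemokines and inflammatory genes the longest to the higher side among secreted factors.

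Fibroblast and mural markers did not move as one. Of 23 tested CAF and fibroblast markers, 15 fell and 8 rose. Thy1, the surface glycoprotein CD90, was at 56.1, 61.3 and 59.8 CPM in the WT cultures and 0.607, 0.705 and 0.644 CPM in the sgPrrx1 cultures, a 90.2-fold fall. Pdpn, which encodes podoplanin, rose by 1.904-fold. Of 9 tested pericyte and smooth muscle markers, 8 fell, 7 at least 2-fold, although Kcnj8 and Abcc9 were at 0 in all libraries. Cspg4, which encodes NG2, fell from 49.1 ± 0.196 to 5.04 ± 0.0303 CPM (9.74-fold). Keratin 19, an epithelial keratin encoded by Krt19, was at 55.7, 53.7 and 54.1 CPM in the WT cultures and 0.163, 0.173 and 0.227 CPM in the sgPrrx1 cultures; in WT it made up nearly all of the summed level of 10 epithelial markers, 53.9 to 55.8 CPM in WT and 0.3805 to 0.562 CPM in sgPrrx1 cultures. Summed leukocyte markers were at 6.57 to 7.44 CPM in WT and 0.852 to 0.951 CPM in sgPrrx1 cultures, with 4 of 6 at 0 throughout. A wider list of macrophage and pan-leukocyte markers had 5 tested members, of which 2 fell and 1 rose at least 2-fold. Its sum went the other way, from 14.9 to 15.5 CPM in WT to 27.2 to 28.5 CPM in sgPrrx1 cultures. The member that rose was Cd14, from 6.90 ± 0.436 to 26.6 ± 0.545 CPM (3.86-fold). In wider lists, 8 epithelial and mammary tumour markers were tested, of which 2 fell and 4 rose at least 2-fold. Their sum was 71.8 to 74.7 CPM in WT and 54.3 to 56.9 CPM in sgPrrx1 cultures. Of 8 endothelial markers tested, 2 fell and 3 rose, and their sum was 8.59 to 9.15 CPM in WT and 16.9 to 17.7 CPM in sgPrrx1 cultures. The part of other cell types in these results was not tested. Fewer cells of a kind and less RNA per cell cannot be told apart in these bulk libraries.

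The study names 9 core transcription factors of WT MMTV-CAF, a choice made with data on these cells and so not independent of them. Of these, 6 fell and 3 rose, and 3 fell at least 2-fold. Prrx1, the edited gene, is itself counted among the 9, among the 6 and among the 3. Klf4 was at 157, 165 and 157 CPM in the WT cultures and 61.1, 59.5 and 57.6 CPM in the sgPrrx1 cultures, a 2.69-fold fall. Nfix was at 578, 556 and 382 CPM in the WT cultures and 273, 266 and 187 CPM in the sgPrrx1 cultures. One Nfix culture in each group was well below the other two, the groups did not overlap, and the fall was 2.09-fold (log2 fold change −1.06 ± 0.19 (SE), adjusted p = 9.48e-04). Junb, a partner in the AP-1 complex, was at 126, 136 and 118 CPM in the WT cultures and 307, 294 and 289 CPM in the sgPrrx1 cultures, a 2.35-fold rise. Cebpb, an activator of inflammatory genes, was at 91.6, 126 and 96.1 CPM in the WT cultures and 177, 159.7 and 158 CPM in the sgPrrx1 cultures. The highest WT culture came near the sgPrrx1 cultures, and the rise was 1.58-fold (log2 fold change 0.66 ± 0.11 (SE), adjusted p = 7.78e-04). Fosl2 rose by 1.44-fold, and Tead4, Klf13 and Nr4a1 fell by 1.18-fold, 1.396-fold and 1.26-fold. Tead1 fell by 1.54-fold. It is not among the 9 counted here, although the paper also places it in a circuit common to its mouse fibroblast types, MMTV-CAF included. Of 22 AP-1 and immediate-early factors, 7 fell and 13 rose, 5 at least 2-fold.

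Mesenchymal and positional transcription factors changed in both directions, with a median log2 fold change of 0.07, and some were near 0 in 1 group only. Of 56 tested mesenchymal and positional factors, 22 fell and 28 rose, 12 and 14 past 2-fold, both shares above those of all genes. Gata4, a factor of heart and visceral mesoderm, was at 0.0481, 0.0631 and 0.0853 CPM in the WT cultures and 27.03, 27.2 and 25.6 CPM in the sgPrrx1 cultures. It was near 0 in all WT cultures and present in all sgPrrx1 cultures. Foxd1 was at 1.24, 1.33 and 1.12 CPM in WT and at 0 counts in sgPrrx1 cultures. Of 32 tested Hox genes, which record body position, 9 fell and 16 rose, 1 and 8 past 2-fold. Hoxb13, the most posterior gene of its cluster, had 0 counts in WT and 25.8, 24.2 and 26.7 CPM in sgPrrx1 cultures, at least 2928-fold higher.

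Many of the genes that changed most had no counts in a whole group. Grb10, an imprinted adaptor of insulin and IGF receptors, was at 205, 203 and 210.2 CPM in WT and had 0 counts in each sgPrrx1 culture, at least 24298-fold lower. The neuropeptide receptor Adcyap1r1 at 153, 149 and 151 CPM, the glypican Gpc6 at 76.1, 73.8 and 76.6 CPM and the retinoic acid-synthesising Aldh1a2 at 46.4, 46.4 and 47.7 CPM in WT likewise had no count in sgPrrx1 cultures. In the other direction, Steap4, a metalloreductase, had 2 counts in all WT libraries together and 457, 469 and 463 CPM in sgPrrx1 cultures, a ratio of 79709.5 (95% counting interval 22066 to 658192). C1qtnf7 was at 69.1, 70.4 and 70.9 CPM in sgPrrx1 cultures and had 0 counts in WT. Of 17 imprinted growth genes, 8 fell and 5 rose at least 2-fold, among them Cdkn1c, Peg3 and Meg3, which had WT means of 1.14, 0.657 and 0.392 CPM and 0 counts in sgPrrx1 cultures. Of 27 ion channel and neuronal genes, 16 fell at least 2-fold and 3 rose, with a median of −2.404. Piezo2, a mechanosensitive channel, was at 9.598 ± 0.525 CPM in WT (mean ± SD, n = 3) and at 0 counts in sgPrrx1 cultures.

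Groups of proliferation and metabolism genes moved largely one way, mostly by less than 2-fold. Of 42 cell cycle and mitosis genes, 34 rose and 4 fell, 6 rose at least 2-fold, and the median was 0.50. Top2a, which untangles DNA in dividing cells, was at 254, 244 and 257 CPM in the WT cultures and 802, 812 and 805 CPM in the sgPrrx1 cultures, a 3.21-fold rise. The CDK inhibitors differed: Cdkn1a, which encodes p21, fell by 2.302-fold, and Cdkn2a rose by 2.31-fold. In cholesterol and fatty acid synthesis 23 of 24 genes fell and 1 rose, 7 fell at least 2-fold, and the median was −0.70. Fatty acid synthase, encoded by Fasn, was at 617, 608 and 617 CPM in the WT cultures and 246, 246 and 243 CPM in the sgPrrx1 cultures, a 2.51-fold fall, and its regulator Srebf1 fell by 2.79-fold. Of 26 glycolysis and hypoxia genes, 22 rose and 4 fell, with a median of 0.63. The glycolytic enzyme genes Hk1, Aldoa and Eno1 were among the 4 that fell, by 1.42-fold, 1.10-fold and 1.08-fold. Egln3, a prolyl hydroxylase induced by hypoxia, rose from 0.398 ± 0.0255 to 29.8 ± 0.549 CPM (74.7-fold), and Bnip3 by 3.47-fold. Cytosolic ribosomal proteins were divided and near 0: 19 of 52 fell and 26 rose, none at 2-fold, with a median of 0.07.

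Other metabolic and stress groups held single genes that changed strongly. Fabp4, a fatty acid carrier of adipocytes, was at 7.401, 7.198 and 6.72 CPM in the WT cultures. In the sgPrrx1 cultures Fabp4 was at 194, 186 and 186 CPM, a 26.6-fold rise. Pparg, the adipocyte master regulator, instead fell from 13.4 ± 0.554 to 1.58 ± 0.229 CPM (8.49-fold). Of 19 adipogenic and lipid-handling genes 7 fell and 9 rose, 26.3% and 36.8% at least 2-fold, against 12.8% and 11.5% over all genes. In retinoid and steroid metabolism 11 of 19 fell and 7 rose. Crabp1, a retinoic acid carrier, fell from 212 ± 8.24 to 20.5 ± 0.525 CPM (10.3-fold). Of 27 secretory pathway and unfolded protein response genes, 17 fell and 8 rose. The endoplasmic reticulum chaperones Hspa5 and Hsp90b1 were among the 10 genes that gained the most CPM, Hspa5 from 1119 ± 28.0 to 1882 ± 36.2 CPM (1.68-fold) and Hsp90b1 from 1542 ± 60.2 to 2430.1 ± 23.6 CPM (1.58-fold). Ferritin heavy chain, encoded by Fth1, and the lysosomal glycoprotein gene Gpnmb gained as well, Fth1 by 1.69-fold and Gpnmb by 3.72-fold. Lrp1, an endocytic receptor, was among the 10 that lost the most, from 2739.6 ± 66.95 to 673 ± 8.73 CPM (4.07-fold). Of 25 angiogenic factors and receptors, 14 fell and 9 rose, with Vegfa, the main vascular growth factor, up by 1.78-fold and Vegfc, of lymphatic vessels, down by 13.3-fold. Apoptosis regulators split 10 down and 12 up of 22, with Bcl2 down by 2.62-fold and Casp4 up by 8.39-fold. At least 2-fold, 13.6% of them fell and 9.09% rose, near the 12.8% and 11.5% over all genes tested.

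Interferon-stimulated genes did not move in one direction. Of 37 tested, 15 fell and 21 rose, 3 and 9 past 2-fold (8.11% and 24.3%, against 12.8% and 11.5% over all genes). Oas3, a sensor of double-stranded RNA, was at 21.7, 21.04 and 21.1 CPM in the WT cultures and 159, 162 and 162 CPM in the sgPrrx1 cultures, a 7.56-fold rise, whereas Irgm1, Stat2 and Ifih1 fell by 2.21-fold, 2.15-fold and 2.08-fold. Among 16 MHC class I and antigen presentation genes 9 rose and 4 fell. H2-K1, a classical class I heavy chain, rose from 132 ± 4.03 to 433 ± 4.78 CPM (3.27-fold); class I genes are near copies of each other, so how their reads were divided is uncertain.

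Fold changes also followed position along some chromosomes, in a pattern noticed after the values were seen. The median log2 fold change of the 381 tested genes of chromosome 18 was −0.47, with 75.9% below 0 and 25.7% lower at least 2-fold, and that of the 680 genes of chromosome 3 was 0.42, with 28.7% below 0. Within chromosome 5, the 95 genes from Gm15772 to Xrcc2 (chr5:3236390-25705797, GRCm38.p6) had a median of 1.203, and 84.2% were above 0, while the other 799 had a median of −0.18. Chromosome 11 held 3 stretches, with medians of −0.42, 0.28 and −0.37 over 448, 529 and 173 genes, and chromosome 16 held 2, with 0.26 over 279 and −0.39 over 151 genes. In wound-healing fibroblasts of the series the medians of the chromosome 11 stretches were −0.18, −0.16 and −0.16, those of chromosome 16 were 0.078 and 0.14, and chromosome 18 was at 0.15 and chromosome 3 at −0.18. The stretch of chromosome 5 was at 0.205 there, with 73.6% of 87 genes above 0, the same direction as in MMTV-CAF, and the rest of that chromosome was at 0.21. DNA copy number was not analysed here, and the origin of the pattern was not tested. Without chromosomes 3 and 18 and the stretch of chromosome 5, 1607 of 12747 genes (12.6%) fell and 1383 (10.8%) rose at least 2-fold. These counts still hold the genes of chromosomes 11 and 16. Among the genes named above, those in the stretch of chromosome 5 include Steap4 and Hgf, which rose. Those on chromosome 18 include Pdgfrb, Csf1r and Piezo2, which fell, and Cd14, which rose against the direction of its median. Those on chromosome 3 include Sfrp2, Fabp4 and Hey1, which rose. Also on chromosome 3 are Postn, Csf1, Fgf2 and Col11a1, which fell against the direction of its median. On chromosome 11, the stretch with a median of −0.42 holds Grb10, Igfbp3 and Adamts2, which fell. The stretch with a median of 0.28 holds Csf3, Hoxb13, Igfbp4 and Ccl5, which rose, and Col1a1 and Krt19, which fell against that direction.

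**Figure D5:**
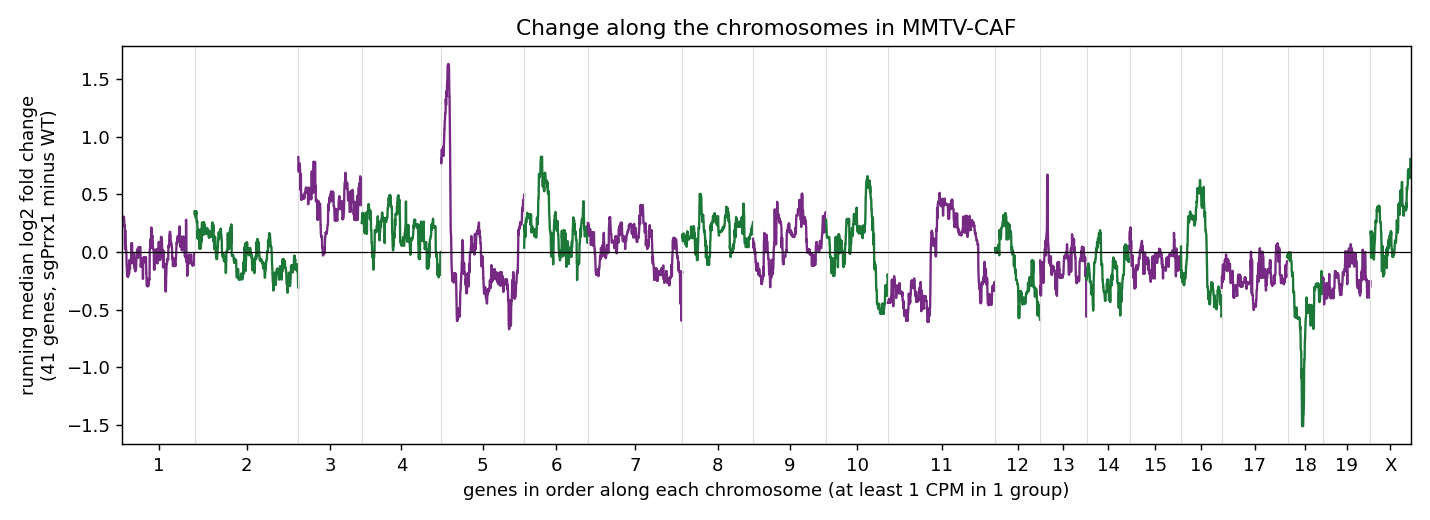
Running median of the log2 fold change of sgPrrx1 against WT MMTV-CAF over 41 neighbouring genes (vertical axis), with genes of at least 1 CPM in a group in their order along each chromosome (horizontal axis). The line runs above 0 over most of chromosome 3, below 0 over most of chromosome 18, high at the start of chromosome 5, and changes side within chromosomes 11 and 16.

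A pair of gene families defined by symbol, also singled out after their values were seen, were nearly one-sided. Of 44 tested clustered protocadherins, neuronal adhesion proteins encoded together on chromosome 18, 34 fell and 5 rose, 31 and 3 past 2-fold. Their summed level was 1332 to 1361 CPM in WT and 361 to 369 CPM in sgPrrx1 cultures. These genes share exons, so the division of reads among them is uncertain; without them the 337 other genes of chromosome 18 had a median of −0.38. Of 56 canonical histone genes, none fell and 42 rose, 33 at least 2-fold, and their sum was 38.5 to 40.01 CPM in WT and 91.0 to 99.6 CPM in sgPrrx1 cultures. Their transcripts mostly lack poly(A) tails and are near copies of each other, so these values cover the part that the library preparation caught.

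Prrx1 was also targeted in wound-healing fibroblasts of the C57BL/6 strain, with 3 sgPrrx1 and 3 WT cultures, and the change there was compared by an interaction term; the names of their columns do not give the cell type, so they were assigned by elimination. Cell type, strain and culture history differ together between the experiments and cannot be told apart. The change in MMTV-CAF differed from that in wound-healing fibroblasts for 11329 of 14853 genes (76.3%), with 5656 (38.1%) more negative and 5673 (38.2%) more positive in MMTV-CAF. Acta2 was at 1681 ± 46.4 CPM in WT and 771 ± 9.91 CPM in sgPrrx1 wound-healing cultures (mean ± SD, n = 3), a log2 fold change of −1.12 ± 0.021. Its fall was larger in MMTV-CAF, the difference between the changes being −2.804 ± 0.027 (SE), adjusted p = 7.49e-16. Fn1 was at 2385 ± 43.6 CPM in WT and 3448 ± 57.5 CPM in sgPrrx1 wound-healing cultures. It rose there and fell in MMTV-CAF, a difference of −1.47 ± 0.022 (SE), adjusted p = 2.30e-14. Cxcl12 was at 385 ± 3.85 CPM in WT and 133 ± 1.81 CPM in sgPrrx1 wound-healing cultures. It fell there and rose in MMTV-CAF, with a difference of 2.84 ± 0.064 (SE), adjusted p = 8.15e-13. Ccl5 rose in both, by 1.72 ± 0.042 on the log2 scale in wound-healing fibroblasts, and the difference did not pass the test (−0.11 ± 0.058 (SE), adjusted p = 0.116).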

How the data were processed

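RNA of MMTV-CAF cultures (3 sgPrrx1, 3 WT) was sequenced by the authors on an Illumina HiSeq instrument with a TruSeq preparation that does not mark strand, with Trimmomatic, STAR and HTSeq named in the submitters' processing notes and mm10 as the build; versions are not given in the sources used here. The deposited values are raw read counts. Here they were filtered (filterByExpr), scaled by TMM and tested in edgeR 4.0.16 (R 4.3.3) with the quasi-likelihood test, group as the only term, and adjusted by Benjamini-Hochberg over all tested genes. SE was derived from the F statistic. A group at 0 counts was set at a floor of 3 counts over the group; intervals and floors cover counting error only. Wound-healing cultures entered only the interaction and their own fit, whose medians by chromosome are given for comparison. Symbols were matched to RefSeq (23447 by symbol, 864 by synonym, 144 unmatched), and promoters came from RefSeq (GRCm38.p6). Replicates differed beyond counting noise (chi-square per degree of freedom 20.8 to 34.3). Genes named were Prrx1, the 15 lowered and 15 raised most, the 10 that lost and gained most CPM, those at 0 in 1 group, the 4 extreme called members of each list each way and those the study names, with other list members where values are given. Members and lists were chosen with earlier results of these data known. Some genes that this rule names are not reported here. Alternatives were other scalings, filters, DESeq2 1.42.0, a replicate block and leaving out each culture. Scripts were tested on simulated data, where DESeq2 made false calls more often than edgeR and above the limit first set.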

Additional observations from a re-analysis of the deposited data

Results flagged for a closer look

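Of 10 genes that the study names and that were compared between cell types, 9 passed the interaction test. For these, the change with the sgPrrx1 edit differed between MMTV-CAF and wound-healing fibroblasts. The same test called 11329 of all 14853 genes (76.3%), and Prrx1, the edited gene, is among the 10. On the log2 scale, the change in MMTV-CAF minus that in wound-healing fibroblasts was −2.804 ± 0.027 (SE), adjusted p = 7.49e-16 for Acta2, −1.47 ± 0.022 (SE), adjusted p = 2.30e-14 for Fn1, and −0.89 ± 0.024 (SE), adjusted p = 4.29e-12 for Csf1, which fell in MMTV-CAF and rose by 0.22 ± 0.020 in wound-healing fibroblasts. It was 2.84 ± 0.064 (SE), adjusted p = 8.15e-13 for Cxcl12 and 1.02 ± 0.15 (SE), adjusted p = 3.50e-05 for Il6, which did not pass the test in wound-healing fibroblasts. Small differences were found for Prrx1 itself (0.12 ± 0.031 (SE), adjusted p = 0.00291), for Col1a1 (−0.18 ± 0.022 (SE), adjusted p = 6.29e-06) and for Smad3 (0.33 ± 0.035 (SE), adjusted p = 2.64e-06), which fell by 0.33 in wound-healing fibroblasts. For Csf3 the fitted difference was 12.63, but WT MMTV-CAF had 0 counts, so this value depends on the prior count and is no measure of size.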

How the results depend on the processing

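No called result changed direction under any alternative run. The counts of genes lower and higher at an adjusted p under 0.05, 5820 and 5732, were 5854 and 5689 with RLE size factors, 5843 and 5703 with upper-quartile scaling, 5790 and 5623 with DESeq2, 5907 and 5807 without the low-count filter, 5305 and 5292 when every culture had to hold 10 counts or more, and 5714 and 5656 with counts divided by 2. Raising the fold threshold to 4 left 950 lower and 668 higher. Requiring at least 10 counts in every culture left 1197 lower and 1190 higher at 2-fold because genes absent from a group are then not tested, and a test against 2-fold itself (glmTreat) left 1472 and 1238. Leaving out each culture in turn gave 5676 to 5814 lower and 5557 to 5660 higher, and for Prrx1 a log2 fold change of −1.07 to −1.05. Same-numbered cultures correlated by 0.0620, −0.0884 and 0.133 in their deviations from the group means, so the numbers were not taken as pairing; with the replicate block 5702 genes were lower and 5618 higher, and Prrx1 was at −1.06. Of 390 named genes in 4959 comparisons, 24 comparisons in 6 genes (Cd74, Cdk4, Col10a1, Fst, Hoxd4 and Plod2) lost significance. Medians of gene lists moved beyond the spread between cultures in 174 of 650 comparisons, in 43 of 50 lists, and counts of members moved by over 1.5 times in 32 of 1300, in 25 of 100. The interaction counts were 5427 and 5878 with RLE size factors and 5527 and 5551 with the block. With 3 cultures a group, an exact permutation test of 1 gene could not go below p = 0.1, so calls rest on the spread shared across genes.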
